A study of Mus musculus with 2 samples.

Results

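Capillary endothelial nuclei of mouse brown adipose tissue are described here, 2293 nuclei of 29175 barcodes. A barcode was a member if at most 10% of its UMIs (unique molecular identifiers, 1 per captured RNA molecule) were mitochondrial and under 0.3% came from the adipocyte genes Ppara and Cidea. It also had to hold UMIs of at least 4 of the 10 genes Ccdc85a, Cyyr1, Ablim3, Dach1, Adgrl4, Flt1, Bmp6, Mcf2l, Lnx1 and Gpihbp1. Members held fewer than 2 of the large-vessel genes Vwf, Plvap and Selp, and at most 1 of Col6a3, Dcn, F13a1, Mrc1, Ttn and Abcc9, genes of fibroblasts, macrophages, muscle and pericytes. These counts chose the nuclei, so the values of the 21 rule genes are a description of the choice.

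The tissue came from mice of 4 weeks, and nuclei were profiled by droplet RNA sequencing in 1 library labelled Flox and 1 labelled KO, with 8000 nuclei aimed for in each. The series gives the KO as Nfe2l1(f)-KO, a knockout of the gene of the transcription factor NFE2L1, which drives proteasome genes. The sources used here do not give the driver of the knockout, the deleted part, the strain or the number of mice per library. Each genotype is 1 library, so differences could not be checked against replicates and none was tested; every interval is a 95% interval for counting error only. Levels are in the usual CPM unit, a gene's UMIs scaled to the summed UMIs of all members of that library. A log2 ratio is the CPM in the library labelled KO over that in the library labelled Flox.

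Capillaries are the exchange vessels of a tissue, lined by a thin endothelium that passes fuel, water and signals between blood and parenchyma. Brown fat burns fatty acids for heat, and its capillaries take lipid from lipoproteins through lipoprotein lipase held on the vessel wall by GPIHBP1, and through the fatty acid transporter CD36. Endothelial identity rests on ETS, SOX and GATA type transcription factors and on VEGF, angiopoietin, Notch and BMP signalling.

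The library labelled Flox held 1355 members among 16046 barcodes that passed the mitochondrial limit, a share of 8.44% (8.02 to 8.89, exact Clopper-Pearson). The library labelled KO held 938 among 12907, a share of 7.27% (6.83 to 7.73). Members had a median of 1393 UMIs and 927 genes in Flox and 1698.5 UMIs and 1056.5 genes in KO, below the medians of 2476 and 2861 UMIs of the other nuclei. Their summed depth was 2531975 UMIs in Flox and 2065598 in KO, and their median mitochondrial share was 0.564% and 1.33%. Between the libraries 65 barcode sequences were shared, 5 of them in members of Flox and 6 in members of KO. The doublet caller Scrublet marked 159 members of Flox (11.7%) and 89 of KO (9.49%). These nuclei were kept in the values below, and left out only where Scrublet is named.

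Nfe2l1 was not lower in the library labelled KO. Flox members had 263 Nfe2l1 UMIs (104 CPM) and KO members 259 (125 CPM), so the KO level was 1.21 times that of Flox (1.01 to 1.44). All other nuclei had 121 CPM in Flox and 276 in KO. Neither the deleted part of the gene nor the driver is given. Whether the counted reads cover the deleted part, and whether the gene was removed in these nuclei, was not tested. The direction of each difference below rests on labels that this transcript did not bear out.

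The difference in share sat in the shallowest nuclei. Among barcodes of 500 to under 1000 UMIs, members made up 24.4% (22.4 to 26.5) in Flox and 15.2% (13.3 to 17.3) in KO. From 1000 to under 2000 UMIs the shares were 11.3% (10.4 to 12.2) and 11.97% (10.8 to 13.2), and the intervals overlapped. From 2000 to under 4000 UMIs they were 4.86% and 5.48%, and at 4000 UMIs or more 3.19% and 2.99%. With each nucleus thinned to 1000 UMIs and shallower ones left out, the shares were 6.07% (5.69 to 6.47) and 6.14% (5.71 to 6.59), which differ by less than counting error.

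**Figure D1:**
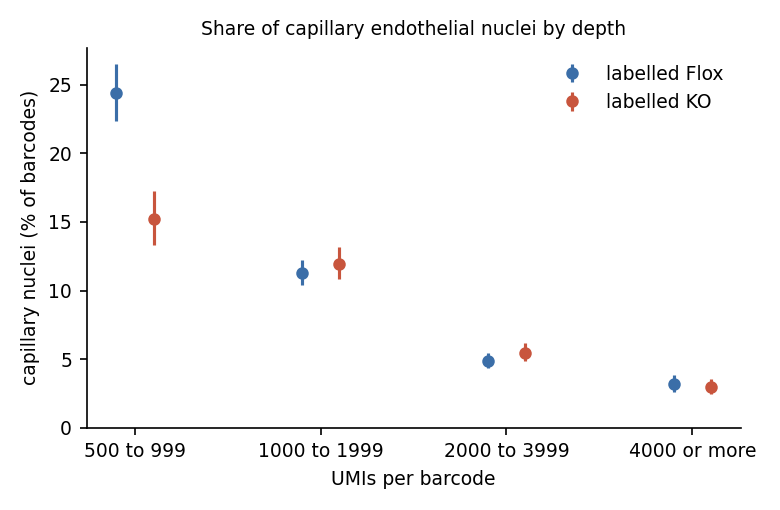
Share of barcodes that were capillary endothelial nuclei (percent, y axis) in 4 classes of UMIs per barcode (x axis), for the library labelled Flox and the library labelled KO; bars are 95% Clopper-Pearson intervals. The libraries stand apart at 500 to under 1000 UMIs, with 24.4% and 15.2%, and their intervals overlap in each deeper class.

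General endothelial genes, which the rule did not use, bore out the label. All 12 genes of a pan-endothelial list had at least 10-fold more CPM in members than in other nuclei, a ratio reached by 3.94% of the 8893 genes counted outside the markers. Summed, the list stood at 6591 CPM in members of Flox and 6696 in members of KO, against 256 and 169 CPM in other nuclei. Pecam1, an adhesion receptor at endothelial junctions, was at 1315 and 1245 CPM, and Cdh5, the junctional VE-cadherin, at 555 and 693 CPM. Of 7 lymphatic markers 6 stayed under 50 UMIs over both libraries: Prox1, the master regulator of lymphatic fate, had 5 and 3 UMIs, Lyve1 6 and 0, and Ccl21a 0 in both libraries. The other was Flt4, with 83 and 111 UMIs, a level 30.5 times that of other nuclei. The list summed to 45.0 CPM in Flox and 70.2 in KO in members, and to 27.6 and 23.0 CPM in other nuclei.

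Of the rule's own markers, Cyyr1, which encodes a small membrane protein, was at 3554 CPM in Flox and 3070 in KO. Flt1, the decoy VEGF receptor, was at 2276 and 2759 CPM. Gpihbp1 (chr15:75596628-75599481 on mm10, plus strand) was at 637 and 851 CPM. Dach1, a transcription factor of coronary artery growth, was at 1543 and 2056 CPM, and Adgrl4, an adhesion receptor of sprouting vessels, at 1917 and 1995 CPM. Ccdc85a, Ablim3, Bmp6, Mcf2l and Lnx1 ranged from 683 to 2258 CPM in Flox and from 783 to 3161 in KO. Every one of the 10 stood under 80 CPM in other nuclei of both libraries.

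All 10 markers were detected in 129 members of Flox (9.52%) and 193 of KO (20.6%), and exactly 4 in 169 (12.5%) and 54 (5.76%). Nuclei just inside and just outside this limit were alike in depth. Members with 4 markers had pan-endothelial sums of 4165 and 6511 CPM at medians of 845 and 882 UMIs. Nuclei with 3 markers, 102 in Flox and 44 in KO, had 4627 and 4838 CPM at 844.5 and 773.5 UMIs, while nuclei with none had 137 and 118 CPM. The limit thus left out some shallow nuclei with an endothelial transcript profile. At the adipocyte limit, members with 0.2 to 0.3% Ppara and Cidea (97 and 57 nuclei) had 2506 and 3447 CPM of pan-endothelial genes, and nuclei just outside, at 0.3 to 0.4% (56 and 49), had 3094 and 2444.

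**Figure D2:**
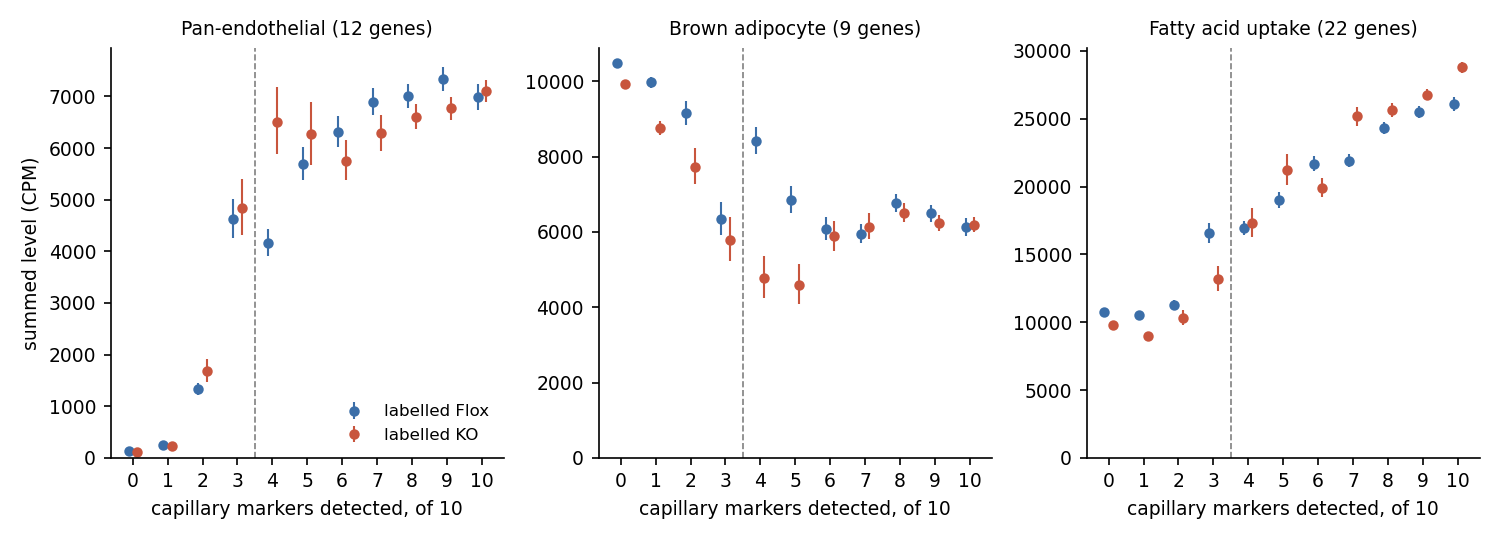
Summed level (CPM, y axes) of 12 pan-endothelial, 9 brown adipocyte and 22 fatty acid uptake genes in nuclei grouped by how many of the 10 capillary markers were detected (x axes), among barcodes that met the rest of the rule; bars are 95% counting intervals, colours are the libraries and the dashed line is the limit of 4. Pan-endothelial sums stood at 137 and 118 CPM with none of the markers and at 6988 and 7104 CPM with all 10. Nuclei with 3 had 4627 CPM in Flox and 4838 in KO, and those with 4 had 4165 and 6511. The brown adipocyte list includes Ppara and Cidea, which the rule limited in all nuclei shown, and the uptake genes include the marker Gpihbp1.

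The 12 genes outside the rule with the highest ratio over other nuclei were Btnl9, Zfp366, Car4, Nova2, Kdr, Myct1, Sncaip, C1qtnf9, Tspan13, Aqp1, Erg and Tie1. They stood 41.5 to 48.9 times above other nuclei, with both libraries summed. Btnl9, a butyrophilin-like surface protein, was at 513 CPM in Flox and 625 in KO. Car4, a carbonic anhydrase anchored on the luminal face of capillaries, was at 320 and 344 CPM, and Kdr, the main signalling VEGF receptor, at 423 and 502. Erg, an ETS factor that maintains endothelial identity, was at 379 and 380 CPM. Tie1, an orphan receptor that acts with the angiopoietin receptor, was at 258 and 251. Nova2, a splicing factor, was at 296 and 298 CPM and C1qtnf9, a secreted protein of the C1q and TNF family, at 173 and 201.

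Since ETS factors such as Erg and Fli1 (2024 and 2485 CPM) were well covered, the 250 bases upstream of gene starts were searched for the ETS-type letters CCGGAAG and CAGGAAG on both strands. The start was the first one of each gene in the RefSeq table (GRCm38.p6). Of the 12 leading genes 10 matched the table, and 3 of them held a match (30.0%). Among the 10 markers 8 matched and 2 held one, Cyyr1 and Mcf2l (25%). The share was 22.8% of the 7169 matched genes counted in members and 16.8% of all 27025 genes in the table, so these numbers do not set the leading genes apart. The 3 leading genes with a match are printed 5′ to 3′ on the gene's strand with the matched letters, or their reverse complement, in capitals.
Btnl9, chr11:49187090-49187339, minus strand: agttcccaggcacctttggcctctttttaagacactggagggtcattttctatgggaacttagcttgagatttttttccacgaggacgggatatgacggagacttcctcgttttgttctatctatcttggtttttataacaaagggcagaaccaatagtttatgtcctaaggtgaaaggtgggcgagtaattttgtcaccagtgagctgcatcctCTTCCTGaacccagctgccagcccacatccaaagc
Car4, chr11:84957504-84957753, plus strand: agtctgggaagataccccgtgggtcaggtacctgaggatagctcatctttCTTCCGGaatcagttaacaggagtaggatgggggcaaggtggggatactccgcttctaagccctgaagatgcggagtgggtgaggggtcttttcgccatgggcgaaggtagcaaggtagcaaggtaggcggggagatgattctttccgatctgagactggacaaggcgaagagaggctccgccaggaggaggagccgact
C1qtnf9, chr14:60767884-60768133, plus strand: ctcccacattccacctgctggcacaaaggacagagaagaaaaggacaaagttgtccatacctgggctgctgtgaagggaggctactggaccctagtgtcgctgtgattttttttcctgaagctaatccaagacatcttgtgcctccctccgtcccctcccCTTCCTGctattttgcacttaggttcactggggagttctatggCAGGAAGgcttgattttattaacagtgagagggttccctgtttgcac
Btnl9 and Car4 each held 1 match and C1qtnf9 held 2, the first on the reverse strand. A match is no evidence of binding.

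The same rule with at least 2 of Vwf, Plvap and Selp found 22 large-vessel endothelial nuclei in Flox and 8 in KO, too few for more than a sketch. Fatty acid uptake genes summed to 13154 and 10444 CPM there, against 23029 and 26067 CPM in members. The rule gene Gpihbp1 was at 223 and 107 CPM in large-vessel nuclei and 637 and 851 in members. Pecam1 was higher in large-vessel nuclei, at 2122 and 2396 CPM. Members that held 1 of the 3 large-vessel genes (47 and 28 nuclei) lay between, with 17669 and 18094 CPM of the uptake genes.

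RNA of other cells was present in members and differed between the libraries. The 9 brown adipocyte markers summed to 6578 CPM in Flox and 6151 in KO in members, and to 14390 and 15179 CPM in other nuclei. Pparg alone, which endothelium also makes, gave 4447 and 4235 CPM of the members' sums. Skeletal muscle markers summed to 368 and 97.8 CPM in members and 938 and 297 in other nuclei. Fibroblast markers summed to 303 and 170 CPM. Pericyte or smooth muscle markers summed to 103 and 134 CPM, macrophage markers to 57.7 and 46.5, T or NK markers to 34.8 and 54.7, and Schwann markers to 71.9 and 46.0. Erythroid genes summed to 578 and 771 CPM in members and 209 and 651 in other nuclei. Some of these lists hold genes that the rule limited: Ppara and Cidea (brown adipocyte), Ttn (muscle), Col6a3 and Dcn (fibroblast), Abcc9 (pericyte), Mrc1 and F13a1 (macrophage). The members' sums of those lists are therefore partly set by the choice. A gene of other cells that the rule allowed was held by 365 members of Flox (26.9%) and 167 of KO (17.8%). The part of RNA of other cells in the differences below was not tested, except where a filter against it is named.

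Most genes differed little between the libraries. Genes were counted from 50 UMIs, libraries summed, which left 8903, and their median log2 ratio was -0.05, with the middle of the distribution from -0.26 to 0.15. At least 2-fold higher in KO were 36 genes (0.404%), and at least 2-fold lower 134 (1.51%). Without the nuclei that Scrublet marked, 88 genes were at least 2-fold lower. When a gene also had to be no less abundant in members than in other nuclei of the library where it was higher, 30 higher and 24 lower genes were left. The same limit left 4360 of all 8903 counted genes. Most genes counted as lower were genes that other nuclei of Flox held at higher levels, as were many genes counted at any ratio.

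**Figure D3:**
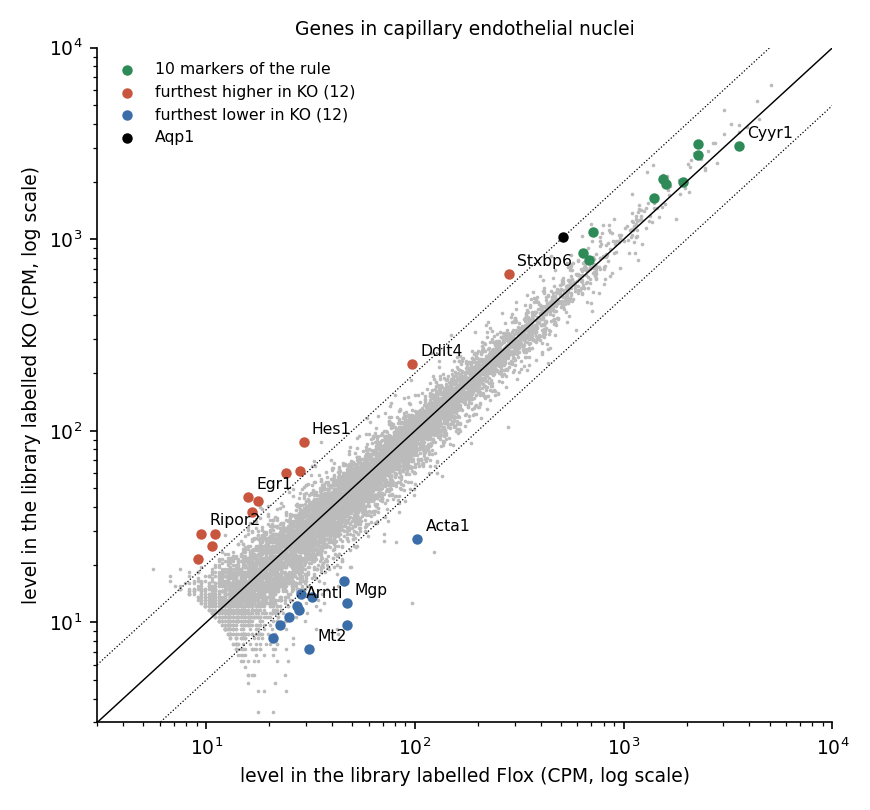
Level of each counted gene in capillary endothelial nuclei (CPM, log scales) in the library labelled Flox (x axis) and the library labelled KO (y axis); the solid line marks equal levels and the dotted lines 2-fold differences. Most genes lie between the dotted lines; Stxbp6 (281 and 659 CPM) and Aqp1 (511 and 1022 CPM) stand out among well-covered genes, and the blue points are the 12 genes furthest lower in KO.

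Aqp1 (chr6:55336432-55348555, plus strand), the water channel of capillary endothelium, was the best covered gene of those at least 2-fold higher in KO. Members had 1293 Aqp1 UMIs in Flox (511 CPM) and 2112 in KO (1022 CPM), a ratio of 2.00 (1.87 to 2.15). Other nuclei had 16.6 and 18.4 CPM. Stxbp6 (chr12:44852484-45074709, minus strand), the vesicle fusion regulator amisyn, was at 281 CPM in Flox and 659 in KO, a log2 ratio of 1.23 (1.10 to 1.36), and at 106 and 95.3 CPM in other nuclei. 

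Stxbp6 was 1 of the 12 genes furthest higher in KO by log2 ratio, and Aqp1 ranked below them. The rest of the 12 were less well covered. Hes1 (chr16:30064384-30067796, plus strand), a repressor that Notch switches on, was at 29.2 CPM in Flox and 87.1 in KO, a log2 ratio of 1.57 (1.18 to 1.99), with its UMIs in 66 and 113 nuclei. Ddit4, an inhibitor of mTORC1 induced by stress and glucocorticoids, was at 97.2 and 222 CPM, a log2 ratio of 1.19 (0.97 to 1.42). Kcna5, a voltage-gated potassium channel, was at 24.1 and 60.0 CPM, a log2 ratio of 1.31 (0.86 to 1.78). Prnp, the prion protein, was at 17.8 and 43.1 CPM. Ifit1, an interferon-induced antiviral protein, was at 16.6 and 37.8 CPM. Cnrip1, Ccn1 and Crybb3 stood between 9.08 and 11.1 CPM in Flox and between 21.3 and 29.0 in KO. Ripor2, with the highest log2 ratio of 1.60 (0.91 to 2.36), had its 24 and 60 UMIs in only 16 and 18 nuclei, 12 of them in 1 nucleus of KO, and other nuclei held 24.2 and 24.1 CPM. Cnrip1 overlaps Plek on the opposite strand. Ccn1 was higher in KO in other nuclei as well, at 11.9 and 24.9 CPM. Outside these 12, and picked after their values were seen, Sgk1, a kinase induced by glucocorticoids, had a log2 ratio of 1.09 from 378 and 657 UMIs, and Rhob, a small GTPase of the early response, 1.09 from 303 and 528 UMIs.

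Several of the genes furthest lower in KO are genes of skeletal muscle. Myh4, a fast myosin heavy chain, had 47.4 CPM in Flox and 9.68 in KO. Acta1, skeletal actin, had 102 and 27.1 CPM. Ckm, muscle creatine kinase, was at 45.8 and 16.5 CPM, and Tnnc2, fast troponin C, at 27.6 and 11.6. All 4 were lower in KO in other nuclei as well, for example Acta1 at 77.8 and 22.5 CPM. Mgp, matrix Gla protein of vessel walls, was at 47.0 and 12.6 CPM, but 39 of its 119 UMIs in Flox lay in 1 nucleus. Mt2, a metal-binding metallothionein, was at 31.2 and 7.26 CPM, a log2 ratio of -2.06 (-3.01 to -1.30), with 20.6 and 16.8 CPM in other nuclei. Arntl, which encodes the clock factor BMAL1, was at 27.3 and 12.1 CPM in members and 19 and 9.05 in other nuclei. Rnf157, Spg7, Majin, Nhs and Rad52 stood between 20.9 and 32.0 CPM in Flox and between 8.23 and 14.0 in KO. Acta1 and Spg7 overlap the same read-through locus, and Tnnc2 overlaps Ube2c on the opposite strand.

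**Figure D4:**
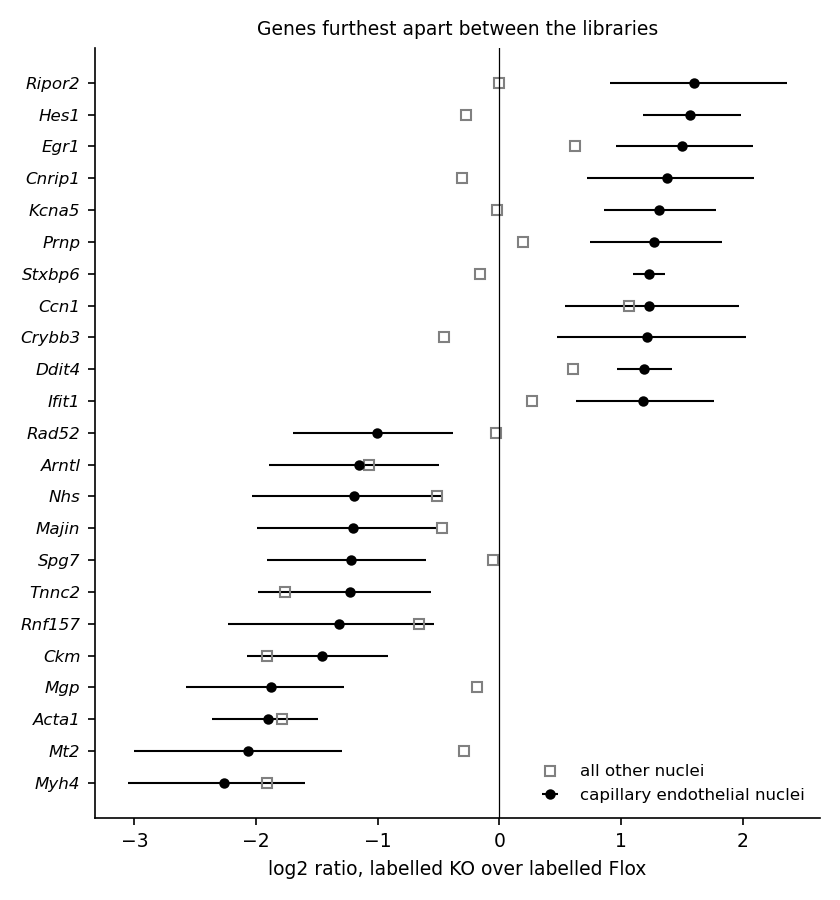
Log2 ratio of KO over Flox (x axis) for the genes furthest higher in KO that are reported here and the 12 furthest lower; black points with 95% counting intervals are capillary endothelial nuclei and open squares are all other nuclei. The squares of Ccn1, Myh4, Acta1, Ckm, Tnnc2 and Arntl lie on the same side as the black points by over 1, while those of Hes1, Kcna5, Stxbp6, Mgp and Mt2 lie near 0.

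Genes of fatty acid uptake and lipid transport were on balance slightly higher in KO. Of 22 genes 20 were counted, 2 at least 1.5-fold higher and 1 lower, where 3.19% and 7.33% of all counted genes were, and their median log2 ratio was 0.21. The uptake list's sum went from 23029 to 26067 CPM, a ratio of 1.13 (1.12 to 1.15). With 4 rule markers detected the sum was 16953 CPM in Flox and 17314 in KO, and with all 10 it was 26087 and 28790. The uptake genes include the marker Gpihbp1, so part of that rise is set by the grouping. Members with all 10 were 9.52% in Flox and 20.6% in KO, and the part of this in the ratio was not tested. Cd36 was at 5092 CPM in Flox and 6406 in KO, Fabp4, a fatty acid carrier of capillary endothelium, at 4363 and 5266, and Lpl, lipoprotein lipase, at 1177 and 1511. The rule gene Gpihbp1, which holds that lipase on the vessel wall, had a log2 ratio of 0.42 (0.32 to 0.52). Lipg, endothelial lipase, was at 7.5 and 18.9 CPM, a log2 ratio of 1.31 (0.51 to 2.20). Lrp1, a lipoprotein receptor, was lower in KO, at 116 and 75.5 CPM, and other nuclei held 417 and 397. Other nuclei also held Cd36 at 1461 and 1747 CPM and Fabp4 at 1484 and 1563 CPM.

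Genes of caveolae, the membrane pits that are dense in capillary endothelium, had a median log2 ratio of 0.11, and none of 9 counted was 1.5-fold apart. Cav1, the main coat protein, was at 1147 and 1200 CPM. The coat stabilisers Cavin1 and Cavin2 had log2 ratios of 0.57 (0.40 to 0.73) and 0.50 (0.36 to 0.64).

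Receptors and ligands of the VEGF and angiopoietin pathways had a median log2 ratio of -0.16 over 13 counted genes. Of these 1 was at least 1.5-fold higher and 2 lower, beside 3.19% and 7.33% of all counted genes. On the receptor side, Kdr and the rule gene Flt1 had log2 ratios of 0.25 (0.12 to 0.37) and 0.28 (0.22 to 0.33). Tek, the angiopoietin receptor TIE2, was at 716 CPM in Flox and 530 in KO, a log2 ratio of -0.43 (-0.54 to -0.33). Its context-dependent ligand Angpt2 was at 58.5 and 32.0 CPM, a log2 ratio of -0.87 (-1.31 to -0.44), and lies within Mcph1 on the opposite strand. Angpt1, the activating ligand made by mural and stromal cells, was at 173 and 106 CPM in members and 568 and 551 in other nuclei. Flt4, the VEGF-C receptor, was at 32.8 and 53.7 CPM. Genes of tip cells, which lead sprouts, had a median of -0.16 over 10 counted genes with 3 at least 1.5-fold lower. Their marker Esm1 had 2 UMIs in Flox and 0 in KO, and Apln 1 and 1.

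In the Notch pathway 14 genes were counted, with a median log2 ratio of 0.08. Of them 2 were at least 1.5-fold higher and 1 lower, where 3.19% and 7.33% of all counted genes were. Beside Hes1, Lfng, which modifies Notch receptors, was at 9.48 and 16 CPM, a log2 ratio of 0.75 (-0.05 to 1.58). Dll4, the ligand of arterial and tip cells, was at 80.6 and 84.2 CPM. The receptors went different ways. Notch1 was at 171 and 183 CPM and Notch4, the endothelial receptor, at 111 and 141. Notch2 was the 1 lower gene, at 38.3 and 25.2 CPM, a log2 ratio of -0.60 (-1.12 to -0.11), and other nuclei held 118 and 93.8.

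BMP and TGF-beta genes gave 20 counted, with a median log2 ratio of 0.10. At least 1.5-fold higher were 3 and lower 1, beside 3.19% and 7.33% of all counted genes. The 3 higher genes were the inhibitors of DNA binding that BMP induces. Id1 was at 219 CPM in Flox and 358 in KO, Id3 at 224 and 370, and Id2 at 18.6 and 39.2. Their log2 ratios were 0.71 (0.55 to 0.87), 0.72 (0.56 to 0.88) and 1.07 (0.54 to 1.63). Of the receptors, Bmpr2 was lower in KO at 438 and 338 CPM, Acvrl1 at 71.5 and 54.7 and Bmpr1a at 77.0 and 53.3. Acvr1 was higher at 165 and 192 CPM and Tgfbr3, a co-receptor, at 782 and 949. Tgfbr1, Tgfbr2 and the co-receptor Eng had log2 ratios from -0.09 to 0.04, with intervals that included 0. The ligand gene Bmp6, a rule gene, was at 1401 and 1646 CPM.

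Of 14 genes of the response to blood flow, 2 were at least 1.5-fold higher and none lower, with a median of -0.08. The shares of all counted genes were 3.19% and 7.33%. Klf2, the factor that laminar flow induces, was at 195 CPM in Flox and 326 in KO, a log2 ratio of 0.74 (0.58 to 0.92), against 13.5 and 14.3 CPM in other nuclei. S1pr1, the sphingosine-1-phosphate receptor, was at 262 and 412 CPM. Nos3, the endothelial nitric oxide synthase, was level at 85.7 and 87.6, and Klf4 stood at 128 and 110. The list's sum moved by less than the single genes, from 4304 to 4529 CPM.

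Immediate early genes, which cells switch on within minutes of a stimulus or of handling, were mostly higher in KO. Of 12 counted, 7 were at least 1.5-fold higher and none lower, where 3.19% and 7.33% of all counted genes were. Their median log2 ratio was 0.72. The list summed to 593 CPM in Flox and 850 in KO, a ratio of 1.43 (1.34 to 1.54), against 213 and 239 CPM in other nuclei. Egr1, a zinc finger factor, was at 15.8 and 45.0 CPM, a log2 ratio of 1.5 (0.96 to 2.08). Apold1, an endothelial early response gene, was at 19.7 and 40.7 CPM. Dusp1, a phosphatase of MAP kinases, was at 34.8 and 58.6 CPM, and Zfp36, a decay factor of inflammatory mRNAs, at 41.1 and 68.3. Fos had only 1 and 7 UMIs and Fosb 0 and 12.

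G protein-coupled receptors of the endothelium gave 16 counted genes, 4 at least 1.5-fold higher and none lower, with a median of 0.36. The shares of all counted genes were 3.19% and 7.33%. Ednrb, the endothelin receptor that clears endothelin, was at 76.6 CPM in Flox and 140 in KO, a log2 ratio of 0.87 (0.61 to 1.14). Gpr182, a chemokine scavenger, was at 26.1 and 45.5 CPM, and Ptger4, a prostaglandin E2 receptor, at 26.9 and 41.2. Adgrf5 and Calcrl, the adrenomedullin receptor, had log2 ratios of 0.19 (0.13 to 0.25) and 0.31 (0.18 to 0.45). Among leukocyte adhesion and inflammation genes 1 of 8 counted was apart, Nfkbia, the NF-kappaB inhibitor, at 130 and 231 CPM. Sele was at 0 UMIs in both libraries and Icam1 at 34.8 and 29.0 CPM.

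Lists of endothelial transcription factors, junctions and Wnt were near level, while the large-vessel or venous list held 1 gene apart. Of its 7 genes 3 were counted, and Nr2f2 was at least 1.5-fold higher in KO, with a log2 ratio of 0.65. In members with fewer than 2 arterial genes Nr2f2 was at 78.5 CPM in Flox and 133 in KO. Of 26 counted endothelial transcription factors none was 1.5-fold apart, with a median of 0.09, and the same held for 17 junction genes (median 0.04) and 9 Wnt genes (median 0.07). Sox18, Tcf15 and Lmo2, factors of vascular development, had log2 ratios of 0.52 (0.25 to 0.80), 0.52 (0.24 to 0.80) and 0.54 (0.12 to 0.96). In the basement membrane list 2 of 14 were at least 1.5-fold lower, beside 7.33% of all counted genes, with a median of -0.13. One of them was Lama4, the laminin chain of capillaries, at 433 and 268 CPM, and other nuclei held 773 and 876. In the insulin and glucose list 17 genes were counted, with a median of 0.04. Of them 1 was at least 1.5-fold higher and 1 lower, beside 3.19% and 7.33% of all counted genes. The lower gene was Irs1, an insulin receptor substrate, at 74.3 and 33.9 CPM, and other nuclei held 244 and 215. The higher gene was Slc2a1, the glucose transporter GLUT1, with 23 and 32 UMIs and a log2 ratio of 0.76 (-0.05 to 1.61). The receptor Insr was at 278 and 239 CPM. Interferon and MHC class I genes had a median of -0.02 over 21 genes, with Ifit1 alone apart. Of 16 proliferation genes 3 were counted, and the list summed to 203 and 191 CPM in members and 196 and 191 in other nuclei. Pola1, a DNA polymerase subunit, was at 92.8 and 77.9 CPM, and Ezh2, a histone methyltransferase, at 64.4 and 76.0. The cycling markers Mki67 and Top2a had 3 and 2 UMIs and 4 and 2 UMIs.

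Proteasome genes were lower in KO in members, as in the rest of the tissue. Of 34 counted, 5 were at least 1.5-fold lower and none higher, where 7.33% and 3.19% of all counted genes were. Their median log2 ratio was -0.33 in members and -0.35 in other nuclei. They summed to 1889 CPM in Flox and 1568 in KO. Psmd4, a ubiquitin receptor of the regulatory particle, was at 81.0 and 45.5 CPM, and Psma7, a core alpha subunit, at 64.0 and 41.2. Mafg, a small MAF partner of NFE2L1, was at 67.9 and 43.6 CPM in members and 139 and 90.1 in other nuclei.

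Respiratory chain genes were lower in KO in members and slightly higher in other nuclei. All 30 counted had a log2 ratio below 0 in members, 8 of them at least 1.5-fold, as 7.33% of all counted genes were. Their median was -0.38 in members and 0.16 in other nuclei. The sum was 4402 CPM in Flox and 3305 in KO, a ratio of 0.751 (0.728 to 0.774), against 4246 and 4721 CPM in other nuclei. UMIs of genes on the mitochondrial genome went the other way in members, with median shares of 0.564% in Flox and 1.33% in KO. In other nuclei these shares were 0.411% and 1.10%. Uqcrfs1, the Rieske iron-sulfur subunit of complex III, was at 82.5 and 43.6 CPM in members. Cox7a1, a muscle and brown fat subunit of complex IV, was at 59.2 and 32.4. Atp5o is carried by 2 gene IDs, which may share reads. Fatty acid oxidation genes gave 19 counted, 5 at least 1.5-fold lower and none higher, with a median of -0.43 in members and 0.27 in other nuclei. Etfb, which passes electrons from this pathway, was at 206 and 117 CPM, and Acadm, a medium-chain dehydrogenase, at 249 and 155. Brown adipocyte markers, which include the rule genes Ppara and Cidea, moved in the same direction by less, with a median of -0.15. With Ppara and Cidea below 0.2%, the ratios of sums were 0.823 for the respiratory chain and 0.811 for fatty acid oxidation. With no gene of other cells they were 0.824 and 0.838, and without nuclei that Scrublet marked 0.705 and 0.691. The part of adipocyte RNA in these sums was not tested.

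Members differed among themselves in arterial genes. Nuclei with at least 2 of 8 arterial genes (Gja4, Gja5, Hey1, Efnb2, Dll4, Bmx, Sema3g and Sox17) numbered 255 of 1355 in Flox (18.8%) and 201 of 938 in KO (21.4%). They were deeper, at medians of 2053 and 2632 UMIs against 1257 and 1520 in the rest. Of them 164 and 148 held exactly 2, at the limit of the split, so the group is given as a range of counts and is not named as a cell type. Among genes outside that list, chosen after their values were seen as furthest apart in both libraries, Nebl, an actin-binding protein, was at 204 CPM in these nuclei and 26.5 in the other members of Flox, and at 145 and 22.5 in KO. Col8a1, a short-chain collagen of vessel walls, was at 185 and 30.3 CPM in Flox and 280 and 25.9 in KO. St6galnac3, a sialyltransferase, was at 1028 and 362 CPM in Flox and 1215 and 367 in KO.

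Vegfc, a growth factor of lymphatic vessels, was at 94.9 and 18.9 CPM in Flox and 58.4 and 22.5 in KO. Fbln5, a protein of elastic fibres, was at 65.7 and 18.9 CPM in Flox and 66.8 and 18.4 in KO. On the other side, Il1r1, the interleukin-1 receptor, was at 8.76 CPM in nuclei with arterial genes and 42.8 in the rest of Flox, and at 6.68 and 31.4 in KO. Tenm4, a teneurin adhesion protein, was at 42.3 and 140 CPM in Flox and 65.1 and 138 in KO. Aqp1 was lower in nuclei with arterial genes, at 364 and 565 CPM in Flox and 846 and 1094 in KO, so the higher Aqp1 level in KO was found on both sides of the split. Stxbp6 was at 174 and 321 CPM in Flox and 543 and 706 in KO. Gpihbp1 was at 666 and 626 CPM in Flox and 846 and 853 in KO.

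**Figure D5:**
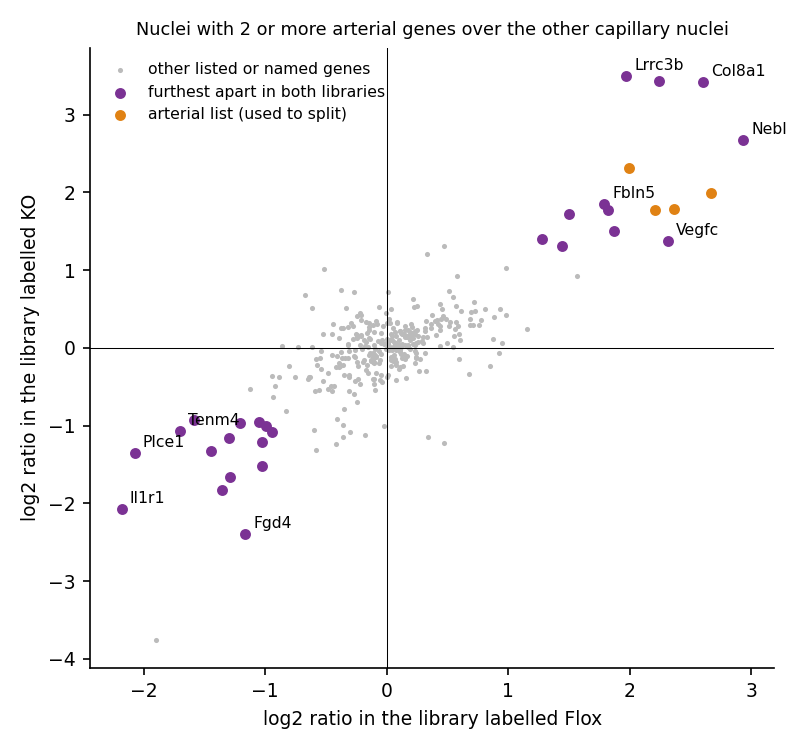
Log2 ratio of nuclei with at least 2 arterial genes over the other capillary nuclei in the library labelled Flox (x axis) and in the library labelled KO (y axis), 1 point per listed or named gene. Orange points are arterial list genes that made the split; purple points are the other genes furthest apart in both libraries, with Nebl and Col8a1 above 2 and Il1r1 below -2 in each.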

How the data were processed

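Single nuclei of brown adipose tissue were profiled with 10x Genomics 3' v3 chemistry in 1 library per genotype, per the labels' protocols. The deposited values are UMI counts per gene and barcode. The file headers name Cell Ranger 5.0.0, and the submitters' processing notes name build mm10. The sources used here do not give the annotation, intron handling or nucleus calling. Of 22620 genes in each file, 22565 IDs had a position in GENCODE vM21, and 42 IDs shared a symbol, so genes were handled by ID.

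UMIs of members were summed per library and divided by the members' total (CPM). Log2 ratios used 0.5 added UMI, and intervals were exact binomial for ratios, exact Poisson for CPM and Clopper-Pearson for shares, at 95% and for counting error only. Genes needed 50 UMIs over both libraries, and were counted at 2-fold, or at 1.5-fold in lists. The members, the 34 gene lists and the named genes were chosen with earlier results of these data known. Named genes were the 21 rule genes, Nfe2l1, Ucp1, Pecam1 and Cdh5; the 12 genes of highest ratio over other nuclei with at least 50 CPM in each library; the 12 furthest apart each way with at least 20 CPM, at least 1.5-fold apart, an interval leaving out 1 and a level not below other nuclei; and up to 4 most different and 3 most abundant members per list. A gene that this rule picked is not reported here. The ranked sets hold no mitochondrial, Rpl, Rps, haemoglobin or Y-linked genes, no Xist or Tsix and no unnamed clones. Other list members with few UMIs, arterial split genes and overlapping genes were named after their values were seen. Ucp1 was at 20.9 CPM in members of Flox and 15.0 in KO.

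No test was run. The counting was tested on simulated data over 8898 genes. At simulated log2 ratios of -2 and -1.5, 51 of 51 and 38 of 40 genes were counted at 2-fold. At 1.5 and 2, 46 of 50 and 48 of 48 genes were, and 14 of 8709 unchanged genes were. Simulated counts were Poisson draws from the members' pooled levels, without variation between nuclei or libraries. They therefore give no rate of false counts for the real comparison. Alternatives were other limits of the rule, Scrublet (scanpy 1.11.5), thinning to 1000 UMIs, mean CPM over nuclei, other totals, TMM factors (edgeR 4.0.16) and other minimums. Computation ran in Python 3.11.15 with pandas 2.3.3, SciPy 1.17.1 and NumPy 2.4.6, and matplotlib 3.10.9 drew the figures.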

Additional observations from a re-analysis of the deposited data

How the results depend on the processing

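Shares depended on the rule. In Flox the share of 8.44% became 7.39% with at least 5 markers, 9.08% with at least 3, 6.17% with no gene of other cells, 6.07% thinned to 1000 UMIs, 7.84% with Ppara and Cidea below 0.2% and 6.56% at 1000 UMIs or more. In KO the share of 7.27% became 5.97% with no gene of other cells, 6.14% thinned and 6.37% at 1000 UMIs or more. The limits of 0.2% and of 1000 UMIs were chosen after seeing the data.

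The count of 36 genes at least 2-fold higher became 105 with a minimum of 20 UMIs and 1147 with none beyond 1 UMI. That of 134 lower became 377 and 2063, and 88 without nuclei that Scrublet marked, 63 thinned and 24 with levels not below other nuclei. The ratio of sums of the respiratory chain was 0.815 with 5% mitochondrial UMIs, 0.824 with no gene of other cells, 0.705 with Scrublet, 0.883 thinned, 0.823 with Ppara and Cidea below 0.2%, 0.815 as mean CPM over nuclei and 0.779 with TMM factors. For fatty acid oxidation it was 0.767 as reported, and 0.819, 0.838, 0.691, 0.879, 0.811, 0.810 and 0.796 in the same order, and 0.797 with at least 5 markers. The proteasome's 0.830 became 0.943 thinned, and the immediate early genes' 1.43 became 1.28 thinned. The G protein-coupled receptors' 1.13 became 1.09 with at least 5 markers, 1.09 with no gene of other cells, 1.07 with Scrublet, 1.04 thinned, 1.09 below 0.2%, 1.16 at 1000 UMIs or more, 1.06 as mean CPM and 1.18 with TMM. The cause was not tested, except that thinning keeps fewer nuclei and UMIs.

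Directions turned for erythroid genes with Scrublet (ratio of sums 0.844; log2 ratios of Hbb-bs -0.30, Hba-a1 -0.078 and Hba-a2 -0.13) and Ebf1 (0.050). Thinned, they turned for the flow response (0.982) and for Ptprc (-0.27), Mrc1 (0.29), Lipe (0.075), Ptprb (-0.039), Etfa (0.0065) and Bmper (0.64). Cidea turned to 0.012 below 0.2% and to 0.039 as mean CPM. Of 408 values for lists 308 moved by less than their interval, and of 2238 for named genes 2057 did. For lists, the settings included a lower minimum of UMIs per gene, which leaves a sum over all genes of a list unchanged. The 34 list values at that setting could not move and are among the 308, so they say nothing about stability. Scaling moved the median of all genes by at most 0.05. No paired analysis was possible because each genotype had 1 library.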
